A study of Mus musculus with 2 samples.

Results

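Cycling monocyte progenitors are dividing cells of the bone marrow that carry the RNAs of the monocyte lineage. A barcode was kept if it held 200 genes or more and no more than 20% of its counts came from mitochondrially encoded genes, which left 28382 cells. A kept barcode was counted here when it met 4 conditions. It held at least 2 counts of F13a1 and a count of at least 1 of Ly6c2, Ccr2, Klf4 and Csf1r. It held counts of at least 2 of the cell cycle genes Mki67, Top2a, Pclaf, Birc5, Rrm2 and Cdk1. The primary granule genes Elane, Mpo, Prtn3 and Ctsg together made up under 0.5% of its counts. Of the 28382 kept cells, 2268 met the rule, 1006 of them from the control library and 1262 from T1D. The rule reads measured values, so the levels of its own 15 genes describe how the cells were chosen and nothing more.

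Both libraries were made from femoral and tibial marrow of C57/BL6 mice. The control mice received sodium citrate solution and had normal blood sugar. The T1D mice received streptozotocin, which kills pancreatic beta cells, the source of insulin, and had high blood sugar; by its title the series concerns the marrow of type 1 diabetic mice with bone loss. There was 1 library per group, and how many mice each holds is not given in the sources used here, nor are their ages. No difference between the libraries therefore has a replicate check, no test was possible, and a difference of condition cannot be told apart from a difference of preparation. Intervals are exact 95% intervals that cover counting error only.

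Monocytes arise in the marrow from myeloid progenitors that lose the alternative of becoming neutrophils as the transcription factors Irf8 and Klf4 take over from Gfi1 and Myb. The committed progenitors still divide and give rise to Ly6C-high monocytes, which leave the marrow through the chemokine receptor Ccr2. The low share of primary granule genes in the cells counted here was set by the rule. The growth factor receptor Csf1r serves the survival of monocytes and macrophages, and osteoclasts, the cells that resorb bone, descend from the same lineage.

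The 4 markers of the name were present in the cells, as the rule largely requires. F13a1, the A subunit of coagulation factor XIII and an RNA typical of Ly6C-high monocytes, stood at 1695 CPM, counts scaled to 1000000 summed counts of the control cells, and at 1893 CPM in T1D. Ly6c2, which encodes the surface antigen of classical monocytes, stood at 2012 and 1665 CPM, and Klf4 at 568 and 294 CPM. Pclaf, a partner of the replication clamp PCNA, stood at 852 and 902 CPM. Of the rule's other monocyte genes, Ccr2 stood at 1291 and 1393 CPM and Csf1r at 131 and 83.1 CPM.

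Free RNA, doublets (barcodes that hold RNA of several cells) and depth can touch these values. T cells, chosen by counts of at least 2 of Cd3d, Cd3e and Cd3g, should lack F13a1, and 4.97% of the 181 control T cells and 7.44% of the 121 T1D T cells held at least 2 counts of it. The parts of free RNA and of doublets in these F13a1 counts were not tested. The T cells had medians of 3142 and 2713 counts, against 7299 and 5121.5 counts in the progenitors. Ly6c2 was found in 62.4% of control and 76.0% of T1D T cells and in 98.6% and 95.8% of the progenitors. T cells can carry Ly6c2 themselves, so its share there is no measure of free RNA. Ccr2 was found in 97.1% and 91.5% of the progenitors against 23.8% and 21.5% of T cells, and thinned to 1000 counts in 67.5% and 65.1% against 15.5% and 12.4%. The rule reads Ccr2, so this describes the choice of the cells. After each cell was thinned to 1000 counts, Klf4 was found in 40.2% of control and 22.7% of T1D progenitors, against 87.3% and 57.8% unthinned. In T cells it was found in 6.63% and 3.31% when thinned in the same way. Ngp, a gene of neutrophil granules, was found in 47.0% of control and 61.2% of T1D T cells thinned to 1000 counts. Progenitors thinned to 1000 counts held it in 25.9% and 50.2% of cells.

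The progenitors held more counts than most kept cells, and a rule that asks for counts of several genes is met more easily by deep cells. A control progenitor held a median of 2221 genes and a T1D progenitor 1728, while the median kept cell of any type held 3633 and 2757 counts. The shallowest kept cell had 1904 counts in control and 1369 in T1D. A total of 253 barcode sequences occur in both libraries, among them 21 of the control and 25 of the T1D progenitors, and leaving these barcodes out gave the same ratio of shares, 1.03, as is given below. Nuclear ribosomal RNA made up 26.4% and 27.6% of the progenitors' counts.

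Part of the cells that met the rule also held RNA of neutrophil precursors. Ngp, Camp, Ltf and Lcn2, genes of the secondary granules that neutrophil precursors fill as they mature, together made up a median of 0.0570% of a control progenitor's counts and 0.166% of a T1D progenitor's. They exceeded 2% in 104 control cells, or 10.3% (8.53 to 12.4), and in 272 T1D cells, or 21.6% (19.3 to 23.9). The highest shares reached 17.4% and 15.4%. The 2% line lies on a slope, with 12 control and 50 T1D cells between 1% and 2% and 27 and 56 cells between 2% and 3%. The cells above the line held monocyte RNAs too, as the rule requires. F13a1 stood at 1147 and 1228 CPM in them and Ccr2 at 919 and 991 CPM, against 13.8 and 23.01 CPM of Ccr2 in dividing secondary granule cells without F13a1. Cells above the 2% line held a median of 8797.5 counts in control and 5785 in T1D, against 7171 and 4919 at or under it. No doublet caller was run here, and whether the barcodes above the line hold more than 1 cell was not tested. Results that these genes could carry are given below for all cells and for the 902 control and 990 T1D cells at or under 2%. That line was set after the values had been seen in earlier work on these data.

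The progenitors made up 7.86% (7.397 to 8.34) of kept control cells and 8.10% (7.68 to 8.54) of kept T1D cells, a ratio of 1.03 (0.948 to 1.12). Without the cells over 2% in secondary granule genes the shares were 7.05% and 6.35%, and the ratio was 0.902 (0.823 to 0.988). The direction thus depended on whether those cells were counted. It moved the other way with the depth limit: among kept cells with at least 1900 counts, which all control cells and 12132 of the 15579 T1D cells reach, the shares were 7.86% and 10.2% and the ratio 1.30 (1.19 to 1.41). Thinned to 1900 counts each, the same cells gave 5.07% and 7.07%, a ratio of 1.40 (1.26 to 1.55), and with all cells thinned to 1000 counts the ratio was 1.01. A share of cells cannot tell more progenitors from fewer cells of other types.

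**Figure D1:**
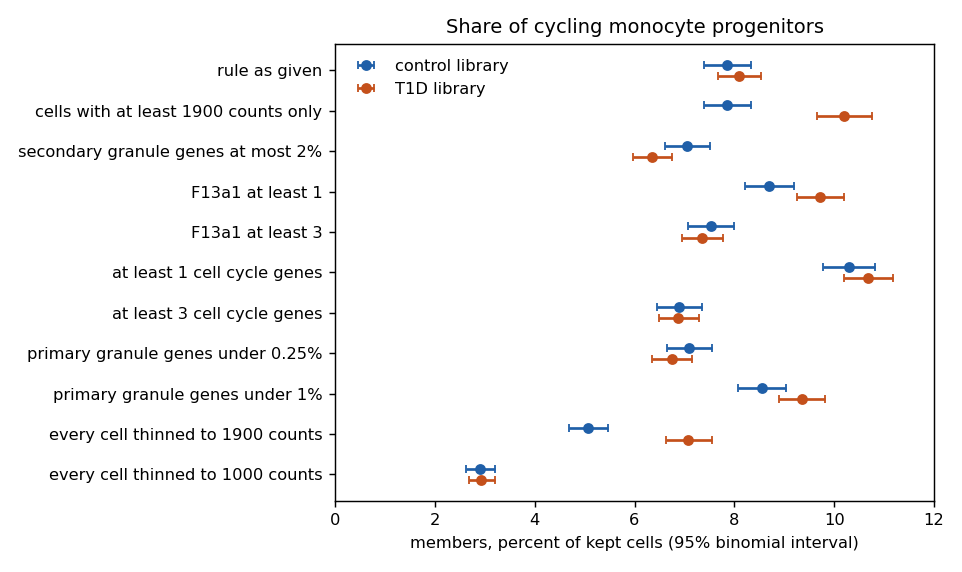
Share of kept cells that met the rule, in percent, in the control and T1D libraries, under the rule as given and under alternatives; bars are exact 95% binomial intervals that cover counting error only. The points lie close under the rule as given, at 7.86% and 8.10%, and far apart with every cell thinned to 1900 counts, at 5.07% and 7.07%.

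The conditions of the rule were applied in turn. The F13a1 condition left 2140 of 12803 control and 2884 of 15579 T1D cells, and the monocyte gene condition 2123 and 2809. The cell cycle condition then left 1163 and 1614 cells, and the primary granule limit 1006 and 1262. The typical progenitor lay well above the F13a1 limit, at a median of 11 counts in control and 9 in T1D, and 4.27% and 9.27% of the cells held exactly 2. All 6 cell cycle genes were found together in 252 control cells, or 25.05%, and in 160 T1D cells, or 12.7%. The smallest allowed number, 2, was found in 12.3% and 15.1%.

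Values just inside and just outside each limit describe the choice of the cells, since most of the genes given are read by the rule. With 2 counts of F13a1, 43 control and 117 T1D progenitors had 789 and 636 CPM of Ccr2. With 1 count, 106 and 253 cells that met every other condition had 398 and 171 CPM. Ngp stood at 15729 and 18544 CPM inside this limit and at 23046 and 29462 CPM outside it. With 2 cell cycle genes, the progenitors held 572 and 724 CPM of Mki67, a nuclear protein of dividing cells, against 240 and 256 CPM in the 311 and 401 cells with 1. Progenitors with 0.25% to 0.5% of primary granule counts held 727 and 905 CPM of Ccr2, against 444 and 456 CPM in the cells with 0.5% to 1%.

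Values of 3 neighbouring populations show what sets the progenitors apart, as a description without a test, since the rule parts them from the neighbours. F13a1 monocytes outside the cycle met the monocyte and granule conditions and held counts of none of the 6 cell cycle genes, 645 control and 784 T1D cells. Cycling primary granule progenitors held primary granule genes at or over 0.5%, 513 and 1020 cells. Cycling secondary granule cells held at least 1% secondary granule counts, under 0.5% primary granule counts and no F13a1, 1620 and 2390 cells. Among genes outside the rule with a mean of at least 25 CPM, a gene was counted as apart when its CPM differed at least 2-fold in the same direction in both libraries, with 5 CPM added and a counting interval that excludes 1. Over the noncycling monocytes 395 of 4405 genes were higher in the progenitors (8.97%) and 71 lower (1.61%). Against the primary granule progenitors 236 of 4888 were higher (4.83%) and 188 lower (3.85%). Against the secondary granule cells 715 of 4310 were higher (16.6%) and 147 lower (3.41%).

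Against noncycling monocytes the 8 highest ratios outside the rule all belonged to the list of G2 and mitosis genes. Ccna2, the cyclin of S phase and G2, stood at 332 CPM against 3.25 in control and at 320 against 3.75 in T1D. Tpx2, which nucleates spindle microtubules, stood at 294 against 4.23 and at 223 against 3.41. Ube2c, which works with the anaphase-promoting complex, stood at 562 against 17.9 and at 483 against 16.4, and Smc2, a condensin subunit, at 529 against 20.5 in control. The 8 lowest ratios were those of Apoe, Slfn5, Prss34, Sirpb1c, Pla2g7, Klra2, Ccl6 and Wfdc17. Prss34, a protease of basophils and mast cells, stood at 14.9 against 107 CPM in control and at 9.20 against 58.0 in T1D. Apoe, the lipid carrier apolipoprotein E, stood at 29.4 against 337 CPM in control and at 58.2 against 425 in T1D. Pla2g7, which degrades platelet-activating factor, stood at 15.8 against 78.8 and at 89.1 against 371. The chemokine Ccl6 stood at 187 against 712 and at 186 against 697. Slfn5, a Schlafen family gene, stood at 59.1 against 416 and at 25.2 against 138.

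Against the dividing primary granule progenitors both populations were in cycle by the rule. Of that neighbour, 30.8% of control and 35.3% of T1D cells also held at least 2 counts of F13a1. Whether the genes apart mark lineage or stage was not tested. Fn1, which encodes fibronectin, stood at 1255 CPM in control progenitors against 25.5 and at 1686 against 79.2 in T1D. The proteoglycan gene Vcan stood at 157 against 5.36 and at 321 against 21.7, and S100a4 at 302 against 12.7 and at 315 against 23.5. Ahnak, Crip1, Ifi30, Ms4a4c and Lgals3 complete the 8 highest. The 8 lowest were Nkg7, Ms4a3, Vcam1, Prss57, Dio2, Gfi1, Vat1 and Cd63. Gfi1, a repressor that directs cells to the neutrophil lineage, stood at 1.52 against 57.1 CPM in control and at 3.88 against 71.7 in T1D. Ms4a3, a marker of granulocyte and monocyte progenitors, stood at 40.6 against 913 and at 63.5 against 927, and the granule protein gene Nkg7 at 14.05 against 536 and at 27.0 against 501. Cd63, a granule membrane protein, stood at 26.7 against 634 and at 87.7 against 690.

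Against the dividing secondary granule cells Fn1, S100a4, Ahnak, Crip1 and Vcan led again. Ms4a6c, a membrane protein of monocytes and macrophages, stood at 211 against 1.63 CPM in control and at 167 against 1.54 in T1D. The lowest included the alarmin genes S100a9 and S100a8. S100a9 stood at 2541 against 25445 CPM in control and at 4829 against 21027 in T1D. Inhba, the activin A subunit, stood at 21.0 against 271 and at 51.2 against 275.

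**Figure D2:**
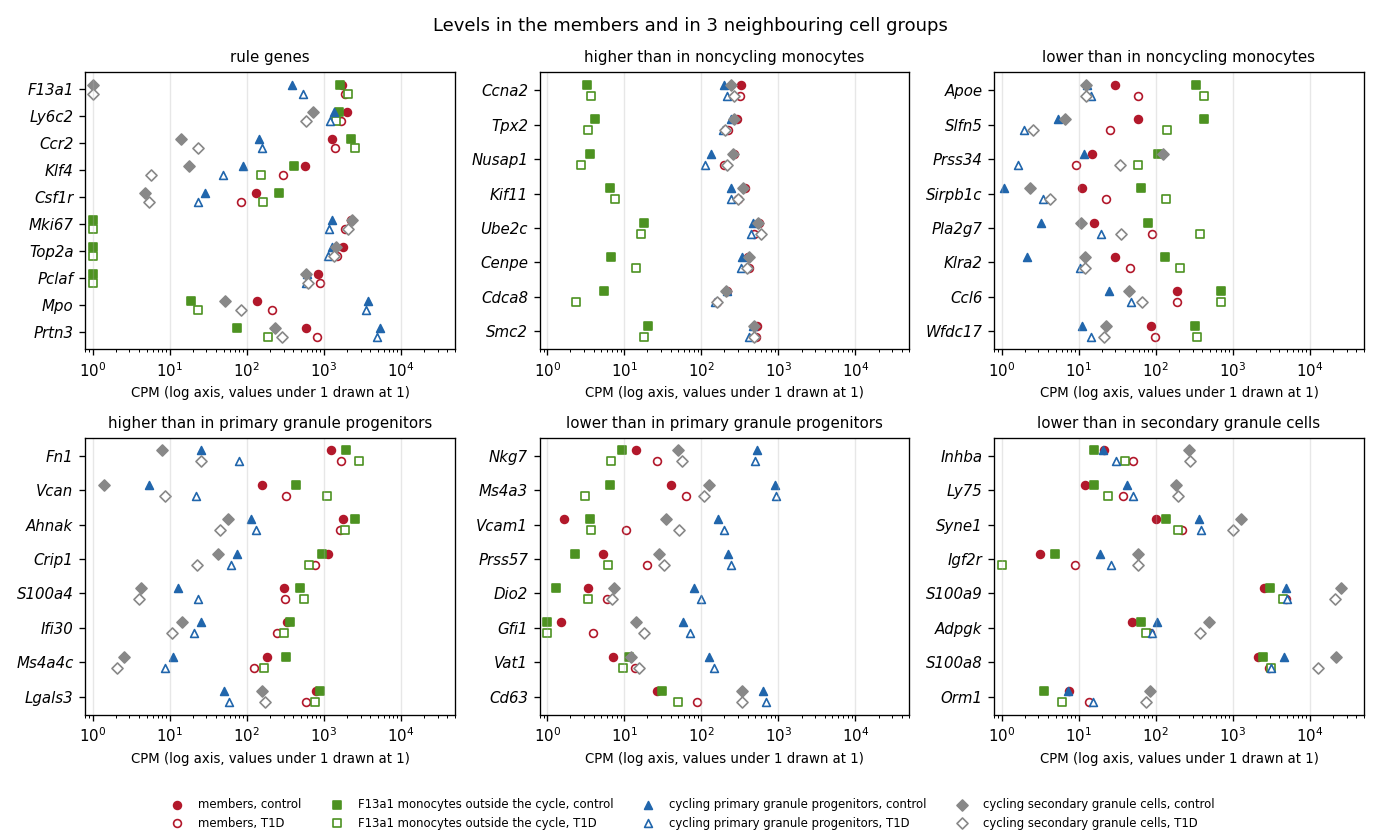
Levels in CPM (log axes, values under 1 drawn at 1) of genes of the rule and of genes with the largest and smallest ratios against each neighbour, in the progenitors ("members", circles) and the 3 neighbouring populations, filled for control and open for T1D. Genes of division lie apart from the noncycling monocytes alone, and Fn1 and Vcan lie above both granule populations in both libraries.

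Irf8, Myb and Kit, of the lists of lineage factors and progenitor genes, were picked after their values had been seen. Irf8, which commits cells to the monocyte and dendritic lineages, stood at 388 CPM in control progenitors, 202 in noncycling monocytes, 216 in primary granule progenitors and 44.0 in secondary granule cells. In T1D the levels were 300, 163, 117 and 20.04 CPM. Among these populations Irf8 was thus highest in the progenitors in both libraries. It was higher still in cells just outside the rule, which held 0.5% to 1% of primary granule counts and met every other condition. There it stood at 573 CPM in control and 380 in T1D. Myb, a factor of dividing progenitors, stood at 75.3 and 84.2 CPM in the progenitors, at 22.8 and 13.3 in the noncycling monocytes at 494 and 543 in the primary granule progenitors and at 112 and 63.0 in the secondary granule cells. Kit, the stem cell factor receptor, stood at 8.61 and 19.98 CPM in the progenitors, at 0.325 and 6.14 in the noncycling monocytes, at 106 and 140 in the primary granule progenitors and at 25.1 and 31.8 in the secondary granule cells.

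Between the libraries most genes of the progenitors lay close together. Of 4974 genes with a mean of at least 25 CPM, 66 were higher in T1D (1.33%) and 36 lower (0.724%) by at least 2-fold on the log2(CPM + 5) scale, with a counting interval that excludes 1. The median log2 ratio of T1D over control was -0.04, with 45.3% of these genes above 0 and 54.7% below. The counts given for gene lists below are to be read beside these shares. In cells at or under 2% of secondary granule genes, 58 of 4994 were higher (1.16%), 48 of them among the 66, and 28 were lower (0.561%), 26 of them among the 36. The same rule passed 78 genes upward (1.81%) and 79 downward (1.83%) in noncycling monocytes. It passed 37 (0.702%) and 32 (0.607%) in primary granule progenitors, and 23 (0.589%) and 16 (0.410%) in secondary granule cells. All populations come from the same pair of libraries, so these are not independent of each other, and their differences were not tested.

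**Figure D3:**
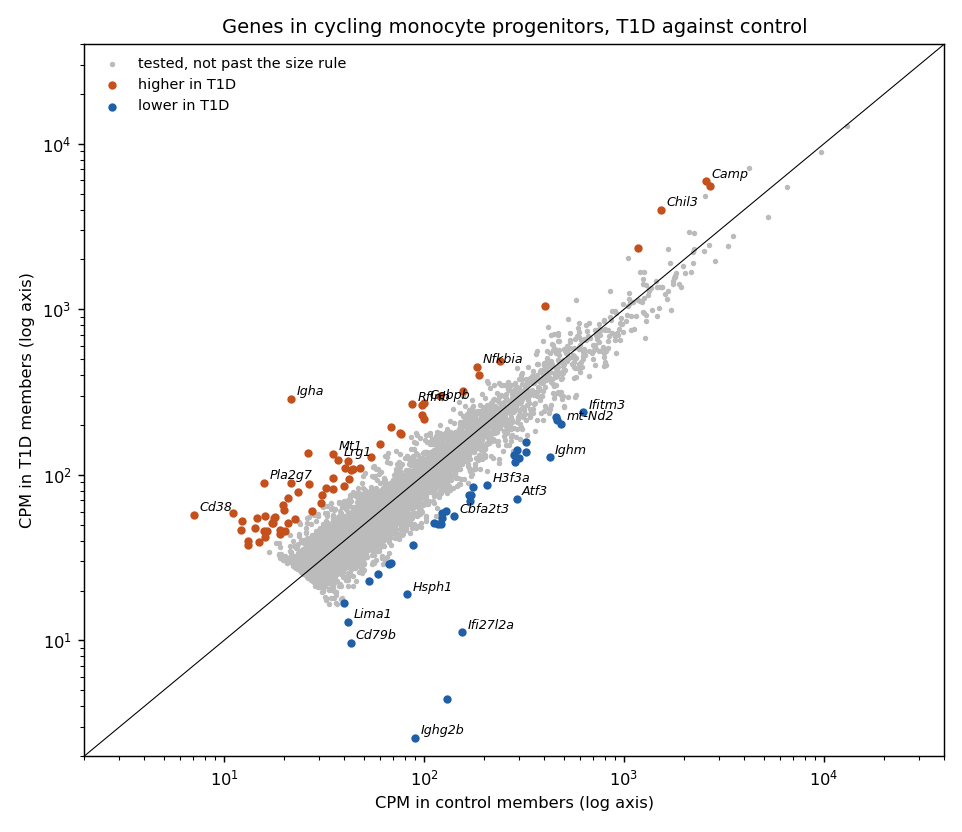
Level of each tested gene in the progenitors ("members") of the control library (x axis) and the T1D library (y axis), in CPM on log axes, 1 point per gene, with the 66 genes higher and the 36 lower in T1D coloured and some of them labelled; the ribosomal RNA feature lies beyond the axes. Most genes follow the diagonal, while Ifi27l2a lies far below it and Cd38 and Pla2g7 above it.

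The genes furthest above had varied roles. Cd38, an ectoenzyme that consumes NAD, stood at 7.09 CPM in control and 57.2 in T1D, 8.07-fold higher (6.09 to 10.9), and was found in 4.37% and 20.6% of the cells. Pla2g7 stood at 15.8 and 89.1 CPM, 5.63-fold higher (4.64 to 6.88). It lay below the level of the noncycling monocytes in both libraries. Mt1, a metallothionein that binds zinc, stood at 35.2 and 134 CPM. Rflnb, which encodes refilin B, stood at 86.9 and 267 CPM, and Lrg1, a secreted leucine-rich glycoprotein, at 37.2 and 124 CPM. Also among the 12 with the largest ratios were Il18rap, Olfm4, Olfml2b, Shtn1, Gpx3 and Klf7. Olfm4, a neutrophil granule gene, stood at 21.6 and 89.3 CPM in all cells and at 4.76 and 23.99 CPM in cells at or under 2% of secondary granule genes.

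The genes furthest below included interferon, stress and mitochondrial genes. Ifi27l2a, an interferon-stimulated gene, stood at 155 CPM in control and 11.2 in T1D, 13.8-fold lower (10.99 to 17.6), and was found in 41.7% and 5.15% of the cells. In noncycling monocytes it stood at 388 and 45.7 CPM, low in T1D as well. Atf3, a stress-induced transcription factor, stood at 291 and 71.6 CPM, and Hsph1, a heat shock chaperone, at 82.6 and 19.0 CPM. Ifitm3, a membrane protein that blocks virus entry, stood at 627 and 238 CPM and was found in 88.2% and 53.6% of the cells. Cbfa2t3, a transcriptional corepressor of progenitors, stood at 142 and 56.2 CPM, and Cfp, which encodes the complement factor properdin, at 286 and 119 CPM. The histone variant gene H3f3a stood at 207 and 86.5 CPM, and mt-Nd2 at 485 and 203 CPM. Near-identical copies of histone genes can share reads, and how these were counted is not given in the sources used here.

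B cell RNA differed between the libraries at the same time. Cd79b, a subunit of the B cell receptor, was among the 12 lowest at 42.9 CPM in control and 9.63 in T1D. The 12 B cell markers, all with counts in both libraries, summed to 950 CPM in control progenitors and 298 in T1D. By Cd79a and Cd79b there were 600 kept B cells in control and 13 in T1D. Ighm stood at 425 and 127 CPM and Igkc at 297 and 127 CPM, with 46.1% of the control and 74.6% of the T1D Igkc counts in a single cell. In control, 1 cell held 98.3% of the Ighg2b counts, and in T1D 1 cell held 87.7% of the Igha counts. Plasma cell markers summed to 184 and 413 CPM, with Ighg1 at 0 in control. The part of B cell and plasma cell RNA in the lower and higher immunoglobulin values was not tested.

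Of 19 tested monocyte lineage transcription factors, 2 were higher in T1D and 17 did not pass the size rule, with a median log2 ratio of -0.18. Cebpb, the C/EBP factor of emergency granulocyte and monocyte production, stood at 100.4 CPM in control and 272 in T1D, 2.71-fold higher (2.50 to 2.95). Its log2 ratio, 1.40, was the largest of the list. The largest of any gene in the list was 1.36 in noncycling monocytes, 1.34 in primary granule progenitors and 1.41 in secondary granule cells, so the neighbours held similar values. Id2, an inhibitor of E proteins, stood at 75.5 and 180 CPM. Klf6 stood at 750 and 558 CPM, Zeb2 at 474 and 311 CPM and Nr4a1, a nuclear receptor of nonclassical monocytes, at 462 and 397 CPM, none of them past the rule. Klf4, read by the membership rule, stood at 568 and 294 CPM.

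Receptors were near level. Of 22 growth factor and cytokine receptors 2 were higher, with a median of -0.07. Il1r2, the decoy receptor of interleukin-1, stood at 41.6 CPM in control and 121 in T1D, and Igf1r, the receptor of insulin-like growth factor 1, at 35.1 and 82.5 CPM. Among the most abundant, Il6ra stood at 266 and 254 CPM, Ifngr1 at 217 and 272 CPM and Csf2rb, the shared beta chain of the GM-CSF, interleukin-3 and interleukin-5 receptors, at 168 and 199 CPM. Chemokine receptors and adhesion genes had Cd63 alone of 14 past the rule and a median of 0.10. Cxcr4, which holds cells in the marrow, stood at 293 and 338 CPM.

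Monocyte effector and surface genes were spread to both sides, with 2 of 35 higher, 1 lower and a median of -0.04. Chil3, a chitinase-like secreted protein of monocytes and neutrophils, stood at 1536 CPM in control and 3983 in T1D, a log2 ratio of 1.37. At or under 2% of secondary granule genes the ratio was 1.54, and thinned to 1000 counts Chil3 was found in 50.1% and 74.6% of all progenitors. Vcan stood at 157 and 321 CPM, at the edge of the rule, and passed under 15 of 23 alternatives. Lyz2, lysozyme, stood at 5257 and 3588 CPM and did not pass the rule. Of 9 progenitor genes none passed, with 7 above 0, against 45.3% of all tested genes, and a median of 0.15. Cdk6, a cyclin-dependent kinase of dividing progenitors, stood at 92.4 and 174 CPM, and Igfbp4, an insulin-like growth factor binding protein, at 57.7 and 108 CPM.

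Genes of S phase and of mitosis differed in how they were placed between the libraries. Of 41 S phase genes 22 lay above 0 and 19 below, with a median log2 ratio of 0.01, and none passed the rule. Of 57 genes of G2 and mitosis 7 lay above 0 and 50 below, with a median of -0.26, and none passed. Over all tested genes 45.3% lay above 0 and 54.7% below. The most abundant genes of mitosis outside the rule were Smc4, a condensin subunit, at 976 CPM in control and 812 in T1D, Ube2c at 562 and 483, and Smc2 at 529 and 506. The largest differences were in Cks2, a cofactor of cyclin-dependent kinases, at 113 and 67.4 CPM, and Ccnf, cyclin F, at 84.9 and 50.7 CPM. The log2 ratio of Ccnf was -0.69, and 0.21 thinned to 1000 counts without the cells over 2% in secondary granule genes. Among S phase genes Tipin, which protects the replication fork, stood at 82.1 and 126 CPM, Tyms, thymidylate synthase, at 78.8 and 52.5 CPM and Rrm1, the large subunit of ribonucleotide reductase, at 309 and 321 CPM. The G2 and mitosis median was -0.27 at or under 2% of secondary granule genes, -0.17 in primary granule progenitors and -0.13 in secondary granule cells.

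Counted per cell, S phase genes made up a median of 0.429% of a control progenitor's counts and 0.447% of a T1D progenitor's, and genes of G2 and mitosis 0.913% and 0.714%. More S phase than mitotic counts were found in 299 control cells, or 29.7% (26.9 to 32.7), and in 465 T1D cells, or 36.8% (34.2 to 39.6). The T1D share was also the higher one when the chosen cells were thinned to an equal depth. The cells themselves were still chosen at full depth, which differed between the libraries. Thinned to 1900 counts, with 25 T1D cells left out, the shares were 28.4% and 35.8%, and thinned to 1000 counts 29.7% and 34.8%. At or under 2% of secondary granule genes they were 30.9% (27.9 to 34.1) and 39.0% (35.9 to 42.1). The line of equal counts is a point on a range, with 52 control and 94 T1D cells within 2 counts of it. The same share was 50.3% and 50.6% in primary granule progenitors and 18.4% and 21.3% in secondary granule cells. Replication-dependent histones had 7 of 9 below 0 and a median of -0.66, with Hist1h2ab lower at 88.1 and 37.5 CPM. Their RNAs end without a poly(A) tail, so their counts depend on how a library was primed.

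**Figure D4:**
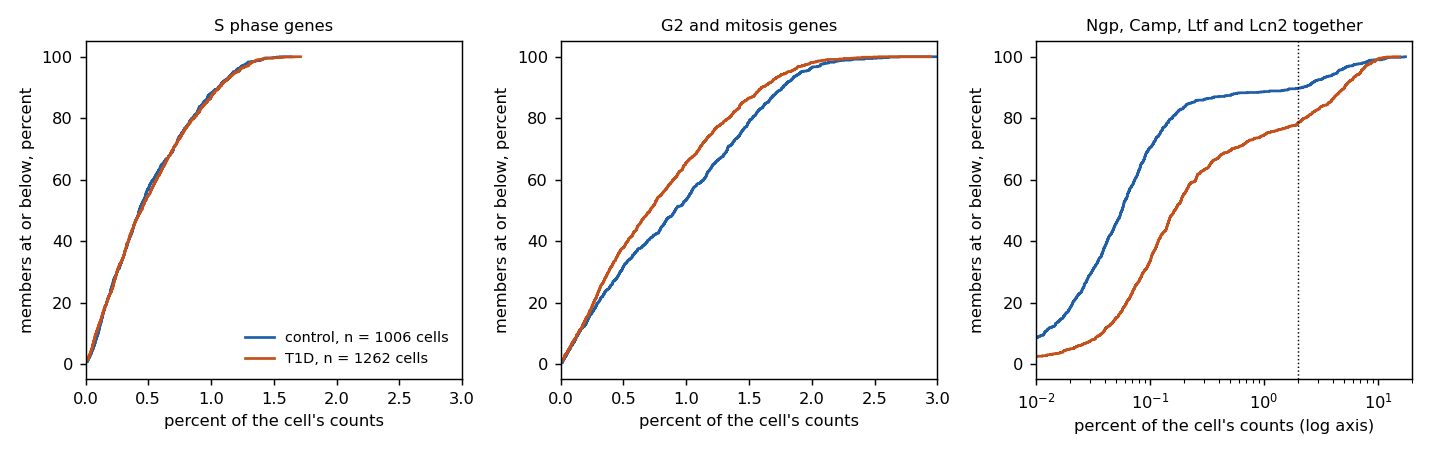
Cumulative share of the progenitors ("members") of each library, 1006 control and 1262 T1D cells, by the percent of a cell's counts in S phase genes, in G2 and mitosis genes and in the 4 secondary granule genes (log axis, dotted line at 2%). The S phase curves run together, the mitotic curve of T1D lies to the left, with a median of 0.714% against 0.913%, and the secondary granule curve of T1D lies to the right.

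Promoters of the 2 classes of cycle genes differ in known sequence elements, and 4 are shown for genes that carry them: Ube2c and Smc2 of mitosis, and Mcm6 and Pola1 of replication, the genes of each list with the highest level among those with a match in the 150 bases before the start. The cell cycle homology element, TTTGAA, keeps mitotic genes silent until late in the cycle, and the E2F element, TTTNNCGC, serves genes of S phase. Both strands of the 250 bases before each start were searched, in RefSeq promoters of the build GRCm38.p6. TTTGAA was found in 38.8% (19 of 49) of matched G2 and mitosis genes, 19.4% (6 of 31) of matched S phase genes, 12.7% of all tested genes and 18.3% of all 27025 genes with a promoter in the table. TTTNNCGC was found in 12.2% (6 of 49), 35.5% (11 of 31), 9.70% and 4.94%. The sequences run 5′ to 3′ on the gene's strand and end at the base before the start, with the matches in capitals, which read TTCAAA or GCGNNAAA where the element lies on the other strand. A match is a description of the letters and shows no binding. Ube2c lies at chr2:164769779-164769928 (plus strand), Smc2 at chr4:52439071-52439220 (plus), Mcm6, a subunit of the replicative helicase, at chr1:128359706-128359855 (minus) and Pola1, the catalytic subunit of DNA polymerase alpha, at chrX:93632156-93632305 (minus).
Ube2c: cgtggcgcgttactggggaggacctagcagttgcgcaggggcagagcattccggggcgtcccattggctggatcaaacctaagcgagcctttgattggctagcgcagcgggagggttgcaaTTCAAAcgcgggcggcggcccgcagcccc
Smc2: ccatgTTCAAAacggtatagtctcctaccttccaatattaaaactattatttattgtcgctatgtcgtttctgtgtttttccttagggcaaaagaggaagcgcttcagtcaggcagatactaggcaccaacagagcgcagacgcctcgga
Mcm6: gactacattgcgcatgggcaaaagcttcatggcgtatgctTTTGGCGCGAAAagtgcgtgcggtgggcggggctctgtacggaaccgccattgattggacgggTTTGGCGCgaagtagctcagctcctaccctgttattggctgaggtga
Pola1: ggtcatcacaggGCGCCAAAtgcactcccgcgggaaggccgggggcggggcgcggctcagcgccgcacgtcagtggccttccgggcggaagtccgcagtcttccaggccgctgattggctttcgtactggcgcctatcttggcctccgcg
The capitals of Ube2c begin 29 bases before the start and those of Smc2 145 bases before it, while Mcm6 holds 3 matches, some of them overlapping, that begin between 47 and 110 bases before its start, and that of Pola1 begins 138 bases before it.

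Interferon-stimulated genes lay lower in T1D, most of them by less than 2-fold. Of 16 tested, 15 lay below 0 and 4 were past the rule, with a median log2 ratio of -0.46, and -0.37 at or under 2% of secondary granule genes. The 4 were Ifi27l2a, Ifitm3, Slfn5 and Ifi203. Ly6e, the most abundant of the list, stood at 1922 CPM in control and 1353 in T1D without passing. The median was -0.90 in noncycling monocytes, -0.14 in primary granule progenitors and -0.07 in secondary granule cells, values set side by side without a test. Beyond the pair of genes given above, Ifi203, a DNA sensor of the p200 family, stood at 169 and 69.9 CPM and Slfn5 at 59.1 and 25.2 CPM, the latter past the rule under 17 of 23 alternatives.

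Most antigen presentation genes lay below 0. Of 7 MHC class II genes 6 did, with 1 past the rule and a median of -0.53, but with every cell thinned to 1000 counts the median was 0.03. Cd74, the invariant chain, stood at 172 CPM in control and 75.03 in T1D, and in T1D 12.5% of its counts lay in 1 cell. Thinned to 1000 counts, or to 1900 without the cells over 2% in secondary granule genes, Cd74 did not pass. In noncycling monocytes it stood at 1396 and 238 CPM. H2-Aa, a class II alpha chain, stood at 61.4 and 32.5 CPM, a log2 ratio of -0.82, which was 0.43 thinned to 1000 counts. B cells express these genes too, B cell markers were higher in the control library as given above, and their part in the result was not tested. Of 13 class I genes 12 lay below 0 with a median of -0.24. B2m, the shared light chain, stood at 717 and 463 CPM, and Tap2, a peptide transporter, was the 1 past the rule, upward, at 20.2 and 45.6 CPM, and passed under 13 of 23 alternatives.

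Genes of mitochondria and of ribosomes lay mostly below 0. All 7 tested mitochondrially encoded genes lay below 0, 3 of them past the rule, with a median of -0.98. Besides mt-Nd2, mt-Nd5 stood at 461 CPM in control and 213 in T1D, and mt-Co1 had a log2 ratio of -0.92. The median cell held 1.78% and 1.46% mitochondrially encoded counts. Of 42 nuclear respiratory chain genes 39 lay below 0, with a median of -0.43, and Cycs, cytochrome c, passed at 124 and 54.9 CPM. Of 79 ribosomal protein genes 73 lay below 0 with a median of -0.41 and none past the rule. Rpl10 stood at 502 and 257 CPM, while Rpsa was level at 2243 and 2305 CPM. The mitochondrially encoded median was -0.95 in noncycling monocytes, -0.72 in primary granule progenitors and -0.87 in secondary granule cells, so the neighbours held similar values. Of 15 glycolysis genes 8 lay below 0, near the 54.7% of all tested genes, with a median of -0.07. Gapdh passed at 293 and 140 CPM.

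Heat shock chaperones lay below 0 in 14 of 16 cases, with a median of -0.66, and 1 passed, Hsph1. Hspa8, the constitutive Hsp70, stood at 1721 CPM in control and 983 in T1D, Hsp90aa1 at 1282 and 843 CPM and Dnajb1, an Hsp70 cochaperone, at 62.5 and 29.0 CPM. In primary granule progenitors Hsph1 stood at 183 and 24.2 CPM, and the list's median there was -0.78. Of 21 genes of the unfolded protein response 14 lay below 0, against 54.7% of all tested genes, with none past the rule. Hspa5, an Hsp70 chaperone inside the endoplasmic reticulum, stood at 910 and 545 CPM. Immediate early genes, which answer to stimulation within minutes, had 1 of 17 higher and 2 lower, with a median of -0.22. Fosb stood at 324 and 138 CPM and Fos at 3300 and 2401 CPM, and Ier3 was higher, at 60.1 and 154 CPM.

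Inflammatory and glucocorticoid response genes were higher in part, and the lists share Nfkbia. Of 16 cytokine and chemokine genes 4 were higher and 1 lower, with a median of 0.28. Il1b, interleukin-1 beta, stood at 120 CPM in control and 301 in T1D, and Nfkbia, the inhibitor of NF-kappaB that the factor itself induces, at 185 and 447 CPM. Socs3, a suppressor of cytokine signalling, stood at 13.2 and 39.7 CPM and passed under 15 of 23 alternatives, and Il6, interleukin-6, at 14.9 and 39.2 CPM. The chemokine gene Ccl2, which draws Ccr2 cells, was the 1 lower, at 66.6 and 29.0 CPM. Of 12 glucocorticoid response genes 4 were higher and none lower, with a median of 0.22. The 4 were Mt1, Il1r2, Nfkbia and Fkbp5, a chaperone of the receptor, which stood at 43.9 and 109 CPM. The list's median was 0.27 in noncycling monocytes, 0.31 in primary granule progenitors and 0.32 in secondary granule cells. Cirbp, a cold-inducible RNA-binding protein, stood at 23.4 and 78.2 CPM, and all 5 genes of its list lay above 0. H1f0, a linker histone typical of differentiated cells, stood at 68.7 and 195 CPM, a log2 ratio of 1.44, against 2.36 in primary and 2.91 in secondary granule cells.

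The lists of lipid, lysosome and osteoclast genes had medians close to 0. Their single genes ranged in log2 ratio from -1.06 to 0.93, from -0.74 to 0.47 and from -0.95 to 1.20. Of 11 lipid and cholesterol genes 1 was lower, Scd2, a fatty acid desaturase, at 52.9 CPM in control and 22.9 in T1D. Plin2, which coats lipid droplets, stood at 149 and 275 CPM, and Acsl1, which activates fatty acids, at 85.8 and 168 CPM. Of 20 lysosome genes none passed, with a median of -0.12. Of 14 genes of osteoclast precursors 7 lay above and 7 below 0, with Id2 higher and a median of 0.00. Insulin and FOXO signalling genes had 9 of 13 above 0, against 45.3% of all tested genes, and a median of 0.08. Igf1r passed the rule, though not at or under 2% of secondary granule genes.

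Secondary granule markers were higher in the T1D progenitors. All 12 tested markers lay above 0, 6 of them past the rule, with a median of 1.00. At or under 2% of secondary granule genes only 9 were tested, so the medians cover different genes. All 9 lay above 0 and 5 passed, with a median of 1.11, and Camp stood at 213 CPM in control and 582 in T1D. In all progenitors Camp stood at 2574 and 5916 CPM and Ngp at 2689 and 5541 CPM. In cells over 2%, Camp stood at 19471 and 22338 CPM and Ngp at 19618 and 19853 CPM, levels that the 2% line itself holds up. Of the 14 markers tested in those cells 10 lay above 0 and 2 passed upward. In the secondary granule cells themselves the markers' median was -0.15. Markers of mature neutrophils summed to 2342 and 3729 CPM. Of the 8 tested, 5 lay above 0 and 3 below, with a median log2 ratio of 0.14 and Retnlg alone past the rule. Retnlg, a resistin-like protein of neutrophils, gave much of the sum, at 1173 and 2354 CPM, and passed under 17 of 23 alternatives. The part of secondary granule RNA in the genes that passed was not tested. Nor was the part of free RNA in the marker values. Ngp, as given above, was found in a larger share of thinned T cells than of thinned progenitors in both libraries. Il18rap, Olfm4, Olfml2b, Vcan, Igf1r, Cd63, Fcnb and Inhba no longer passed upward, nor Gapdh and Scd2 downward, at or under 2%. Not passing did not always mean a ratio under the size limit. The lowest log2 ratio over all alternatives was 1.34 for Il18rap, 1.39 for Olfm4, 1.17 for Olfml2b and 1.21 for Cd63. Olfm4, at the levels given above, lay under the gene minimum at or under 2%. Cd63 was not tested there, since the largest log2 ratio among the tested genes of its list was 0.62.

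**Figure D5:**
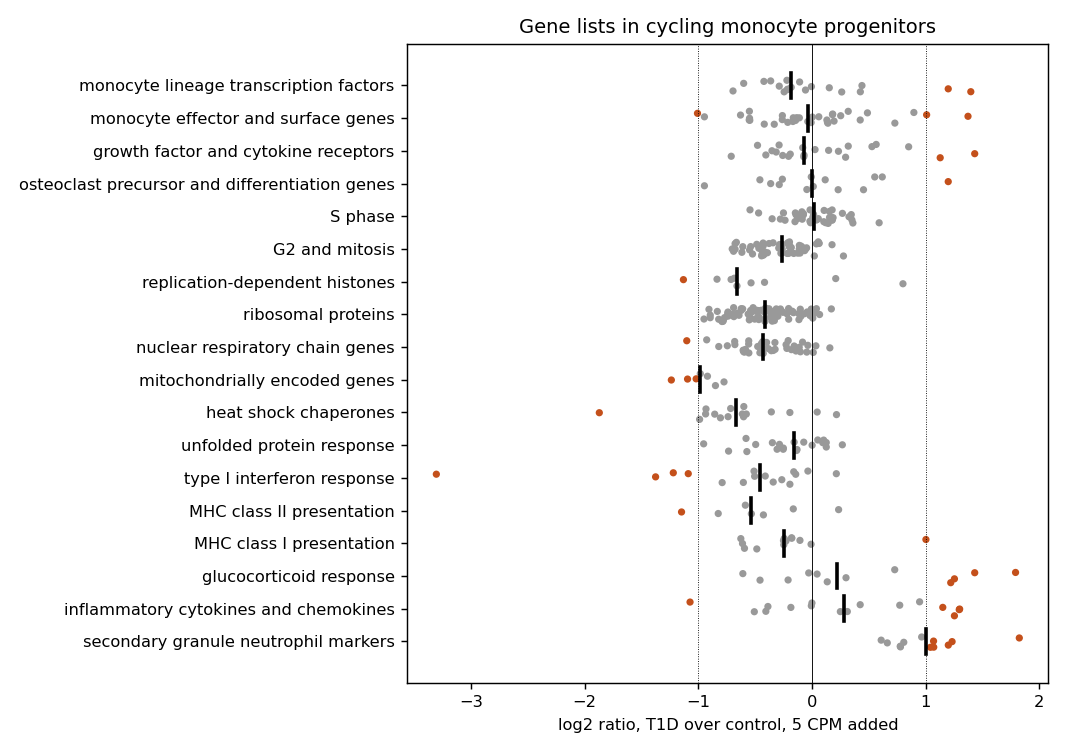
Log2 ratio of T1D over control in the progenitors for each tested gene of 18 lists, with 5 CPM added; bars are list medians, red points passed the size rule and dotted lines mark 2-fold. The mitochondrially encoded list lies lowest with a median of -0.98 and the secondary granule markers highest at 1.00.

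RNA of other cell types was present at various levels. T and NK cell markers summed to 49.9 CPM in control and 64.0 in T1D, with Ncr1 at 0 in T1D. Basophil markers summed to 109 and 131 CPM, and conventional dendritic cell markers to 84.2 and 84.8 CPM, with Fscn1 at 0 in T1D. Stem cell markers summed to 54.5 and 63.7 CPM, with Mecom at 0 in both, and Procr at 0 in T1D as well. Marrow macrophage markers summed to 100.1 and 137 CPM, with Cd5l at 0 in control and Spic at 0 in T1D. Erythroid markers summed to 698 and 1108 CPM, of which Hbb-bs gave 209 and 359 CPM, and 30.9% and 13.6% of its counts lay in 1 cell. All 5 tested erythroid markers lay above 0 and none passed, with a median log2 ratio of 0.66 that ranged from 0.15 to 2.43 over the alternatives. In the cells over 2% in secondary granule genes 4 of 5 passed upward and 1 downward. Nonclassical monocyte markers summed to 763 and 672 CPM, with Cd300e and Fabp4 at 0 in control.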

How the data were processed

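Marrow was dissociated and loaded on the Singleron GEXSCOPE kit, per the labels' protocols. The authors deposited 1 table of raw counts per library, with genes as rows and barcodes as columns. Per the submitters' processing notes, bcl2fastq 2.19 split the reads by sample, featureCounts assigned them, and the build was mm9. Of the aligner, the annotation, the calling of cells and the use of molecular identifiers the sources used here say nothing, so the values are called counts. The control library held 57494166 counts over 12880 barcodes and the T1D library 52022458 over 15771, and 77 and 192 barcodes were removed. The progenitors held 7902283 and 6957081 counts. No doublet was called or removed.

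Counts were summed over the cells of a population and library and given as CPM of that sum. Log2 ratios had 5 CPM added to both libraries. A gene was tested at a mean of at least 25 CPM and called at an absolute log2 ratio of at least 1 with a counting interval excluding 1, which is a rule of size and not a statistical test. Shares have exact Clopper-Pearson and ratios exact conditional binomial 95% intervals. The members and the 50 gene lists, of which 34 of 954 genes were in neither table, were chosen with earlier results of these data known, and medians over lists support nothing by themselves.

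Named were the 12 genes with the largest and the 12 with the smallest log2 ratio past the rule, leaving out rule, immunoglobulin, hemoglobin, Xist, Y-linked and unnamed features. Also named were, from each list, the 3 genes with the highest level and the 2 with the largest absolute ratio, the 8 highest and 8 lowest against each neighbour, and the genes of the rule. Other genes (Irf8, Myb, Kit, Fkbp5, Il6, Ccl2) were chosen after their values were seen. Some named genes are not reported here.

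Alternatives changed the limits of the rule, the depth, the added CPM, the gene minimum and the scaling (edgeR 4.0.16 TMM and DESeq2 1.42.0 size factors, in R 4.3.3, used for scaling alone). On Poisson counts simulated for 4954 genes, the rule passed 0 of 50 genes changed 1.5-fold and 11 of 50 changed 2-fold. It passed 50 of 50 changed 3-fold, 50 of 50 changed 4-fold and 0 of 4754 unchanged genes. The changed genes were drawn from those at 50 CPM or more in control, so their rates do not cover genes at lower levels. The simulated counts held counting error alone. They lack variation between cells, animals or preparations and show nothing about calls that arise from it. Scripts used Python 3.11.15, NumPy 2.4.6, SciPy 1.17.1 and pandas 2.3.3.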

Additional observations from a re-analysis of the deposited data

Results flagged for a closer look

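Some genes past the size rule in the progenitors lay on the other side of 0 in a neighbouring population. The difference between populations was not tested, and with 1 library per group it could not be. Among genes higher in T1D progenitors, the log2 ratio in cycling secondary granule cells was -0.34 for Chil3, -0.26 for Ngp, -0.11 for Camp, -0.13 for Fcnb, -0.13 for Olfml2b and -0.33 for Syne1. In the progenitors these genes had ratios from 1.04 to 1.74, Ngp being the lowest and Olfml2b the highest. Among immunoglobulin genes lower in T1D progenitors, Igkc had a ratio of 1.66 and Ighg2b of 2.47 in cycling secondary granule cells, and Ighg2b one of 4.05 in F13a1 monocytes outside the cycle. A single control progenitor held 98.3% of the progenitors' Ighg2b counts.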

How the results depend on the processing

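The share of progenitors, T1D over control, kept a ratio within the counting interval of its reported value under 10 alternatives and left it under 5. It was 0.902 with secondary granule genes at most 2%, 1.40 with every cell thinned to 1900 counts and 1.30 with only cells of at least 1900 counts. With both the thinning and the 2% limit it was 1.25 at 1900 counts and 0.936 at 1000. The limits of at least 1900 counts and the combined settings were chosen after seeing the data, as was leaving out barcodes found in both libraries. The 66 higher genes became 135 when thinned to 1000 counts, with and without the 2% limit, 37 with 20 CPM added and 39 with a gene minimum of 50 CPM. The 36 lower genes became 144 when thinned to 1000 counts, 143 with the 2% limit as well, 58 when thinned to 1900 with that limit, 18 with 20 CPM added and 59 with a gene minimum of 10 CPM. Thinning leaves fewer counts per gene, and the gene minimum and the added CPM set which genes can pass. Of named genes past the size rule, Igha reversed to -1.05 with at least 1 cell cycle gene, and Ighg2b reversed when thinned to 1000 counts (0.84, and 0.93 with the 2% limit) and to 1900 counts (0.58 and 0.68); single cells hold most counts of both. Among named genes that did not pass, H2-Aa, Ccnf, Cxcr2 and Jchain also changed sign when thinned to 1000 counts with the 2% limit, to 0.53, 0.21, -0.24 and -1.43. Pla2g7, Mt1, Lrg1, Rflnb, Cebpb, Id2, Chil3, Il1r2, Nfkbia, Cirbp, Ier3, Ifi27l2a, Atf3, Hsph1, Ifitm3, Cbfa2t3, mt-Nd2, Cfp, H3f3a and Fosb passed under all 23 alternatives, and Cd38 under 20, all but both settings thinned to 1000 counts and the 50 CPM minimum. TMM scaling shifted all log2 ratios by 0.02 and median-of-ratios scaling by -0.01. Over all alternatives the median log2 ratio ranged from -0.39 to -0.22 for G2 and mitosis genes, -0.04 to 0.23 for S phase genes, -0.76 to -0.55 for heat shock chaperones, -1.05 to -0.85 for mitochondrially encoded genes, -0.63 to -0.28 for interferon genes and -0.66 to 0.06 for MHC class II genes. No paired analysis was possible because there is 1 library per group.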
